A study of Mus musculus with 2 samples.

Results

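Myeloid cells of a mouse pancreatic tumour in which the Cdkn2a transcript was detected were compared with myeloid cells of the same library in which it was not. A barcode counted as myeloid when it held at least 5000 unique molecular identifiers (UMIs, one per captured RNA molecule), at least 500 genes and at most 10% mitochondrial UMIs, with Tyrobp plus Fcer1g at 500 CPM (UMIs of a gene scaled to a fixed total of UMIs per cell or group) or more. Barcodes with S100a8 plus S100a9 at 5000 CPM or more, Col1a1 plus Col3a1 at 2000 CPM or more, or Cpa3 plus Cd3e at 200 CPM or more were left out, to keep neutrophils, fibroblasts, mast cells and T cells away. Of 21172 barcodes in the series 3022 were myeloid by these limits, and 476 of them carried at least 2 Cdkn2a UMIs, namely 274 of 1255 in the library sorted Tom positive and 202 of 1767 in the one sorted Tom negative. These are called detected cells. They were set against the 738 and 1286 myeloid cells with 0 Cdkn2a UMIs, and the 243 and 279 cells with exactly 1 UMI were kept apart.

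Both libraries came from stromal cells of allografted pancreatic ductal adenocarcinomas in mice of the genotype p16-CreERT2/R26-LSL-tdTomato, in which an inducible Cre under p16 control switches on the red reporter tdTomato. The tumours were perfused with PBS, dissociated with Liberase, freed of red cells and sorted by tdTomato, giving 1 library of reporter positive and 1 of reporter negative cells. Detected and undetected cells therefore came from mice of the same genotype, and they were compared within each sort. The age of the mice, how many were pooled and how Cre was induced are not given in the sources used here. With 1 library per sort there is no replicate: no test between detected and undetected cells was run, the intervals given below cover counting error only, and a difference is called when it reaches 1.5-fold in the same direction in both libraries.

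Cdkn2a encodes p16Ink4a, which binds CDK4 and CDK6 and so keeps the retinoblastoma protein active and the cell in G1, and, from another first exon, p19Arf, which stabilises p53 by holding MDM2. Both are classical markers of senescence, the lasting arrest that comes with a secretory programme, and p16Ink4a is also expressed by macrophages that have not undergone senescence. In tumours, macrophages range from cells with features of tissue residents, rich in Folr2, Lyve1 and Mrc1, to recruited cells that take on glycolytic and inflammatory programmes in poorly perfused regions.

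The assay reads the 3′ ends of transcripts, and the annotated p16Ink4a and p19Arf transcripts end within the same stretch of chromosome 4 (89274471 and 89274541 on the minus strand of mm10), so a Cdkn2a UMI does not say which of the products a cell made. The start sites are far apart. Both promoter windows are shown because the reporter was built on p16 while the count covers both, with the 50 bases from the start of transcription in capitals (RefSeq, GRCm38.p6, 300 bases, minus strand). The p19Arf window lies at chr4:89294570-89294869 and the p16Ink4a window at chr4:89282143-89282442.
p19Arf start: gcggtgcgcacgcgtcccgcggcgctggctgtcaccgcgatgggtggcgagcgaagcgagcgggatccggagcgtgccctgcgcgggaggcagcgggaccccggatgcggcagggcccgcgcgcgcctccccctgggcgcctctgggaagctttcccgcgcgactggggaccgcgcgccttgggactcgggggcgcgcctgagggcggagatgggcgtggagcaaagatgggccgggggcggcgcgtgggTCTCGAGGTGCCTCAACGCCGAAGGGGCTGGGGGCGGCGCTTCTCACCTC
p16Ink4a start: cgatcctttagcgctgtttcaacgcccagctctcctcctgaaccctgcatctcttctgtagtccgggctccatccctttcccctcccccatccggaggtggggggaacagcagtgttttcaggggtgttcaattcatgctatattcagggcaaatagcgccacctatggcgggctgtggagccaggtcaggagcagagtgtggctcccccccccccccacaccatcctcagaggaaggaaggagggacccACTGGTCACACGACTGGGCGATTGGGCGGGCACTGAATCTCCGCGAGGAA

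Cdkn2a was a low transcript even where it was detected. Detected cells held 151.8 CPM in the Tom positive library and 120.3 CPM in the Tom negative library, with at most 27 and 14 UMIs in a cell. The share of detected cells was 21.8% (exact binomial 95% interval 19.6 to 24.2) of Tom positive and 11.4% (9.98 to 13.01) of Tom negative myeloid cells. After every cell was thinned to 5000 UMIs the shares were 5.18% and 2.26%, so most members would not be members at that depth. Cells with 1 UMI, just outside the limit, held 44.0 and 42.2 CPM of Cdkn2a, and cells with 2 UMIs, just inside, 73.1 and 77.5 CPM. All these values follow from the rule and are a description.

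Background RNA was gauged in barcodes rich in Xist, a transcript almost absent from the myeloid cells (0.282 and 0.911 CPM), that held little Tyrobp and Fcer1g. None of 19 and 15 such barcodes held 2 Cdkn2a UMIs, at median depths of 70613 and 36379 UMIs, although with so few barcodes the upper exact limits are 17.6% and 21.8%. Fibroblast-type barcodes, chosen by Col1a1 and Col3a1, held 2 or more Cdkn2a UMIs in 12.7% and 14.0% of cases at median depths of 40818 and 38505 UMIs, but at 14.7 and 16.0 CPM, below the 49.9 and 23.8 CPM of all myeloid barcodes, whose median depths were 20446 and 21445 UMIs.

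Detection followed depth. Each library was divided into 10 bins of equal cell number by total UMIs. From the shallowest to the deepest bin the share of detected cells went from 4.76% to 41.3% in Tom positive and from 2.26% to 23.2% in Tom negative cells, whereas the Cdkn2a level varied between 34.4 and 60.2 CPM and between 18.4 and 35.5 CPM, and was no higher in the deepest bin (44.8 and 18.4 CPM) than in the fifth and sixth bins. Detected cells had a median of 25812 and 25867 UMIs, and undetected cells 18029 and 20445. Undetected cells were therefore weighted so that their mix over the depth bins equalled that of the detected cells, and all levels of undetected cells below are weighted in this way. After weighting, the mean depth was 28178.5 against 27693 UMIs in Tom positive and 28307 against 28284 in Tom negative cells. The mean mitochondrial share was 3.53% in detected and 4.37% in undetected Tom positive cells, and 4.43% and 4.69% in Tom negative cells.

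**Figure D1:**
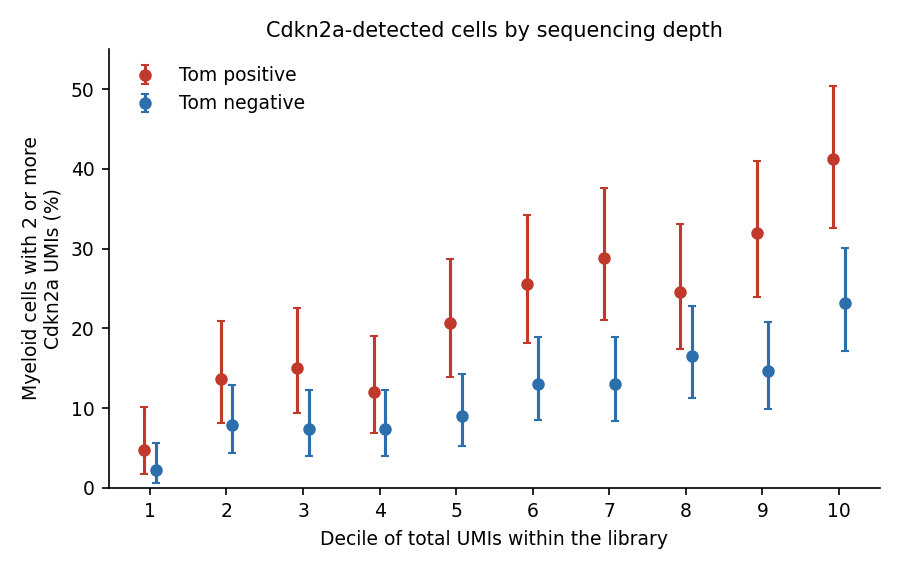
Share of myeloid cells with 2 or more Cdkn2a UMIs (%) in each of 10 bins of total UMIs within the Tom positive (red) and Tom negative (blue) libraries; points are shares and bars exact binomial 95% intervals. The share goes from 4.76% to 41.3% and from 2.26% to 23.2% between the shallowest and deepest bin.

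The rule itself set high Tyrobp and Fcer1g and low Cd3e and collagen genes, so their levels say nothing of identity. Among the 13 pan-macrophage markers the rule did not use, none was called in either direction in both libraries. Over all genes 0.559% were called higher and 0.763% lower, so a list of this size would hold about none. In the Tom positive library alone 3 were past 1.5-fold lower and none higher. Adgre1, which encodes F4/80, stood at 94.3 CPM in detected and 163 CPM in undetected Tom positive cells and at 93.9 and 117 CPM in Tom negative cells. Aif1 stood at 105 against 211 and 121 against 151 CPM, and Lyz2 at 4643 against 7037 and 5173 against 6181 CPM. Of the T and NK cell markers that the rule did not use, Il7r was highest in detected cells at 77.6 and 89.4 CPM, and the others stood at 1.40 CPM or less. The 9 epithelial or carcinoma markers came to 82.6 against 70.0 CPM and 117 against 81.3 CPM, most of it Cdh1 at 74.6 and 78.9 CPM in detected cells. In Tom negative cells Krt18 stood at 17.7 against 2.33 CPM, Krt8 at 10.7 against 2.14 CPM and Krt19 at 5.77 against 1.25 CPM, while Epcam stood at 0.175 against 0.762 CPM. Summed fibroblast markers, 11 genes of which the rule capped Col1a1 and Col3a1, came to 1732 against 1529 CPM in Tom positive and 1901 against 1887 CPM in Tom negative cells, and 10 endothelial markers to 374 against 265 and 114 against 89.1 CPM. The 8 mural cell markers came to 84.7 against 40.0 and 54.7 against 52.1 CPM, with Rgs5 at 46.6 against 1.28 CPM in Tom positive cells. Without clusters 10 and 17, which were led by endothelial and granzyme genes, 35 genes were higher and 53 lower in both libraries, 32 and 44 of them among those called with all cells. A stricter limit of 500 CPM was set on Col1a1 plus Col3a1 and on S100a8 plus S100a9. It left 36 of 274 detected and 93 of 738 undetected cells in the Tom positive library. In the Tom negative library it left 4 of 202 detected and 37 of 1286 undetected cells. Most cells of both groups, and nearly all in the Tom negative library, thus held fibroblast or neutrophil RNA past at least 1 of these limits. Cells past each limit were not counted apart. The part of RNA from fibroblasts, neutrophils or epithelial cells in the differences was not tested.

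Some barcode sequences occurred in both libraries. Of the detected cells 39.4% in the Tom positive and 11.4% in the Tom negative library shared theirs with a barcode of the other library, and in each of these the detected cell held over 5 times the UMIs of the other copy. The shares among depth-matched undetected cells were 38.7% and 11.8%. Without shared barcodes 17.9% of Tom positive and 10.8% of Tom negative myeloid cells were detected, and 28 genes were higher and 60 lower in both libraries. In these cells the differences of Egln3 were 1.54 and 0.89, of Inhba 1.29 and 1.66, and of Nos2 2.18 and 0.71, on the log2 scale. Only 1 barcode was myeloid in both libraries.

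The reporter followed Cdkn2a detection weakly. In the Tom positive library tdTomato stood at 1086 CPM in detected and 909 CPM in undetected cells, a ratio of 1.19 (95% interval 1.16 to 1.23). At 500 CPM or more of tdTomato, 213 of 938 cells were detected (22.7%, 20.1 to 25.5), and below it 61 of 317 (19.2%, 15.1 to 24.0), so the intervals overlap. In the Tom negative library the reporter stood at 50.4 and 39.8 CPM. Of the 202 detected cells there, 1 reached 500 CPM of tdTomato, and the median detected cell held 31.7 CPM; the sort itself selected for low reporter.

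Over 5900 genes at 20 CPM or more in the myeloid cells of both libraries, 33 (0.559%) were higher and 45 (0.763%) lower in detected cells of both libraries. In the Tom positive library alone 183 genes (3.1%) were higher and 253 (4.29%) lower, and in the Tom negative library 38 (0.644%) and 63 (1.07%). The differences, on the scale of log2(CPM + 1), had a Pearson correlation across genes of 0.69 between the libraries, and 4331 genes (73.4%) had the same sign in both; genes are not independent replicates, and the libraries are different sorts. The median gene stood at −0.07 and −0.04. When differences were centred on that median the calls were 45 higher and 41 lower, which moves the share of higher calls from 42.3% to 52.3%.

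**Figure D2:**
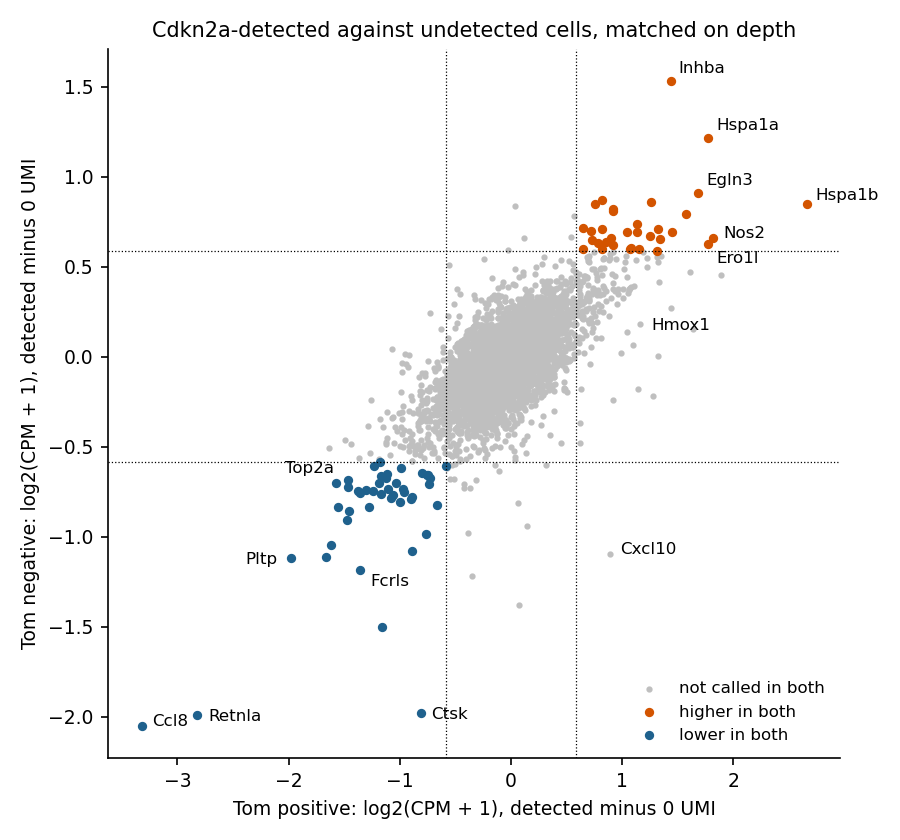
Difference between detected and undetected myeloid cells for 5900 genes, log2(CPM + 1), in the Tom positive (horizontal) and Tom negative (vertical) library after matching on depth; dotted lines mark 1.5-fold, orange genes are higher and blue genes lower in both. The 33 higher genes include Inhba, Hspa1a and Egln3 and the 45 lower genes Ccl8, Retnla and Ctsk, while Cxcl10 lies on opposite sides.

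Glycolysis and hypoxia response genes were higher as a list. Of 24 listed genes 23 were measured, and all 23 were above 0 in both libraries, with medians of 0.58 and 0.32 against −0.07 and −0.04 over all genes, and 4 of the 23 were called higher in both while none was called lower. The 4 were Ero1l, Egln3, Ndrg1 and Bnip3. Over all genes 0.559% were called higher. Within the list the differences ran from 0.02 to 1.77 in Tom positive and from 0.11 to 0.91 in Tom negative cells, and Hif1a, the oxygen-regulated transcription factor subunit itself, was the lowest in both libraries.

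Ero1l, the endoplasmic reticulum oxidase that drives disulphide bond formation, stood at 759 CPM in detected and 221 CPM in undetected Tom positive cells, and at 474 and 307 CPM in Tom negative cells. The ratios were 3.43 (3.28 to 3.59) and 1.54 (1.48 to 1.61). Egln3, a prolyl hydroxylase that marks HIF-1α for destruction and is itself a HIF target, stood at 411 against 127 CPM and at 266 against 141 CPM, ratios of 3.23 (3.04 to 3.42) and 1.88 (1.77 to 2.00). Egln3 was higher in all 10 depth bins in each library. Without weighting for depth, the median Tom positive detected cell held 304 CPM of Egln3 and the median undetected cell 0.
Ndrg1, a stress-responsive gene induced by low oxygen, stood at 383 against 128 and 243 against 140 CPM. Bnip3, which marks mitochondria for removal, stood at 644 against 259 and 476 against 316 CPM, at ratios of 2.49 and 1.504. Both were higher in all 10 depth bins of each library. Each of these 4 genes had a smaller difference in the Tom negative library, where the ratio of Bnip3 was just past the limit of 1.5; the difference between the libraries was not tested.

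The promoter windows of 3 of these genes are shown because they moved together and because the factor that answers low oxygen binds a short core. Capitals mark ACGTG or GCGTG on either strand, overlaps counted; the window runs from 250 bases before to 50 after the RefSeq start, all on the minus strand of GRCm38.p6. The windows are chr12:54203825-54204124 (Egln3), chr14:45318523-45318822 (Ero1l, RefSeq name Ero1a) and chr7:138909457-138909756 (Bnip3).
Egln3: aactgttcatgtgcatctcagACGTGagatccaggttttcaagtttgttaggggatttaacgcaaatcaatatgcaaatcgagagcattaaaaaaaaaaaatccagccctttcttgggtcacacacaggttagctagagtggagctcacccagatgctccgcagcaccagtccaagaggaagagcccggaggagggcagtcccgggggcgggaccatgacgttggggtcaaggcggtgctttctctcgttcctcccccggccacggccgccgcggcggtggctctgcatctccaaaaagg
Ero1l: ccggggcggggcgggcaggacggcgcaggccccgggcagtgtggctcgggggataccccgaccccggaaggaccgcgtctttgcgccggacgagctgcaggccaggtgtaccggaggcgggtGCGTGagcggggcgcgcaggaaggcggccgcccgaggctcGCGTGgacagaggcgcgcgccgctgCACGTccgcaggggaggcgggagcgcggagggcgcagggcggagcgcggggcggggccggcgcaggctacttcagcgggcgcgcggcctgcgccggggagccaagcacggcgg
Bnip3: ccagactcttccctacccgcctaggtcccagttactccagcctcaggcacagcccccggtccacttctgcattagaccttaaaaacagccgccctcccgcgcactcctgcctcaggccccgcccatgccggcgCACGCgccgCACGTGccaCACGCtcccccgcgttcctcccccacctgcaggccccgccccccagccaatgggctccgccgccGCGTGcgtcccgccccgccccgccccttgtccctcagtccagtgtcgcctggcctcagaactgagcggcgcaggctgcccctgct
They held 1, 3 and 5 matches. At least 1 match occurred in 43.8% of 32851 mouse promoter windows of this length, at least 3 in 8.93% and at least 4 in 3.86%, and a match is a description of letters and not a binding site. The p19Arf window above held 4 matches and the p16Ink4a window 0. The share of G and C was 54.7% in the Egln3, 80.3% in the Ero1l and 71.7% in the Bnip3 window. It was 77% in the p19Arf and 60.3% in the p16Ink4a window. Both cores hold CG, and the shares over all windows were not matched on base content.

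A second group of higher genes lay in a marker list named for Nos2, Mmp12 and Hmox1 macrophages. The list was chosen with earlier results of these data known, so its values are a description. Of the 9 genes in this marker list, all 8 measured members were above 0 in both libraries, with medians of 1.16 and 0.51. Inhba, Mmp12, Nos2 and Spp1 were called higher in both, against 0.559% of all genes. Inhba, which encodes the activin A subunit, stood at 151 CPM in detected and 55.2 CPM in undetected Tom positive cells and at 173 and 59.2 CPM in Tom negative cells, ratios of 2.73 (2.50 to 2.99) and 2.92 (2.68 to 3.17). Among the called genes ranked as higher, Inhba had the largest smaller difference of the 2 libraries. Its RNA sat in a minority of cells: at 5000 UMIs a cell 22.3% of detected and 13.7% of undetected Tom positive cells, and 25.7% and 12.4% of Tom negative cells, held an Inhba UMI.

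Nos2, the inducible nitric oxide synthase, stood at 177 against 49.6 CPM and at 116 against 73.1 CPM. Mmp12, the macrophage elastase, stood at 2990.2 against 1182 and 2633 against 1674 CPM. Spp1 (osteopontin) was the most abundant called gene, at 9844 against 4427 and 7192 against 4762 CPM. Arg1, the arginase that competes with Nos2 for arginine, was past 1.5-fold only in Tom positive cells, at 4208 against 2682 CPM, and stood at 3479 against 2604 CPM in Tom negative cells. Hmox1, the haem oxygenase, stood at 1343 against 599 CPM in Tom positive but at 661 against 584 CPM in Tom negative cells and was not called; the difference between the libraries was not tested.

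The chaperone genes Hspa1a, Hspa1b and Hsph1 were called higher, picked by size and not from a heat shock list. Hspa1a stood at 138 against 39.5 and 135 against 57.7 CPM, Hspa1b at 221 against 34.1 and 150 against 82.7 CPM, and Hsph1 at 59.7 against 36.0 and 74.0 against 45.3 CPM. Hspa1a and Hspa1b are near-identical neighbours on chromosome 17, so the division of reads between them is uncertain. Hspa1b was higher in only 6 of 10 depth bins in the Tom negative library, and at 5000 UMIs 10.4% of detected and 8.32% of undetected cells there held an Hspa1b UMI. Of the 19 immediate early and dissociation genes measured, Hspa1a and Hspa1b were the only ones called; the median of the list was −0.23 and −0.12, and Egr1 stood at 110 against 166 and 125 against 159 CPM.

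The other higher genes named by size were Ackr3 (an atypical receptor for CXCL12), Adgrl2, Impa2, Dach1, Selenbp1, Car4 (a carbonic anhydrase) and Srgap3. Car4 stood at 356 against 149 and 257 against 161 CPM. Ackr3 stood at 113 against 46.5 and 90.8 against 49.5 CPM. Dach1, at 81.6 against 45.8 and 58.2 against 35.2 CPM, was higher in only 5 of 10 depth bins in the Tom negative library and stood at −0.16 in Tom positive cells without shared barcodes. Of 19 higher genes that were named, 18 were higher in at least 9 depth bins in Tom positive and 10 in Tom negative cells.

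**Figure D3:**
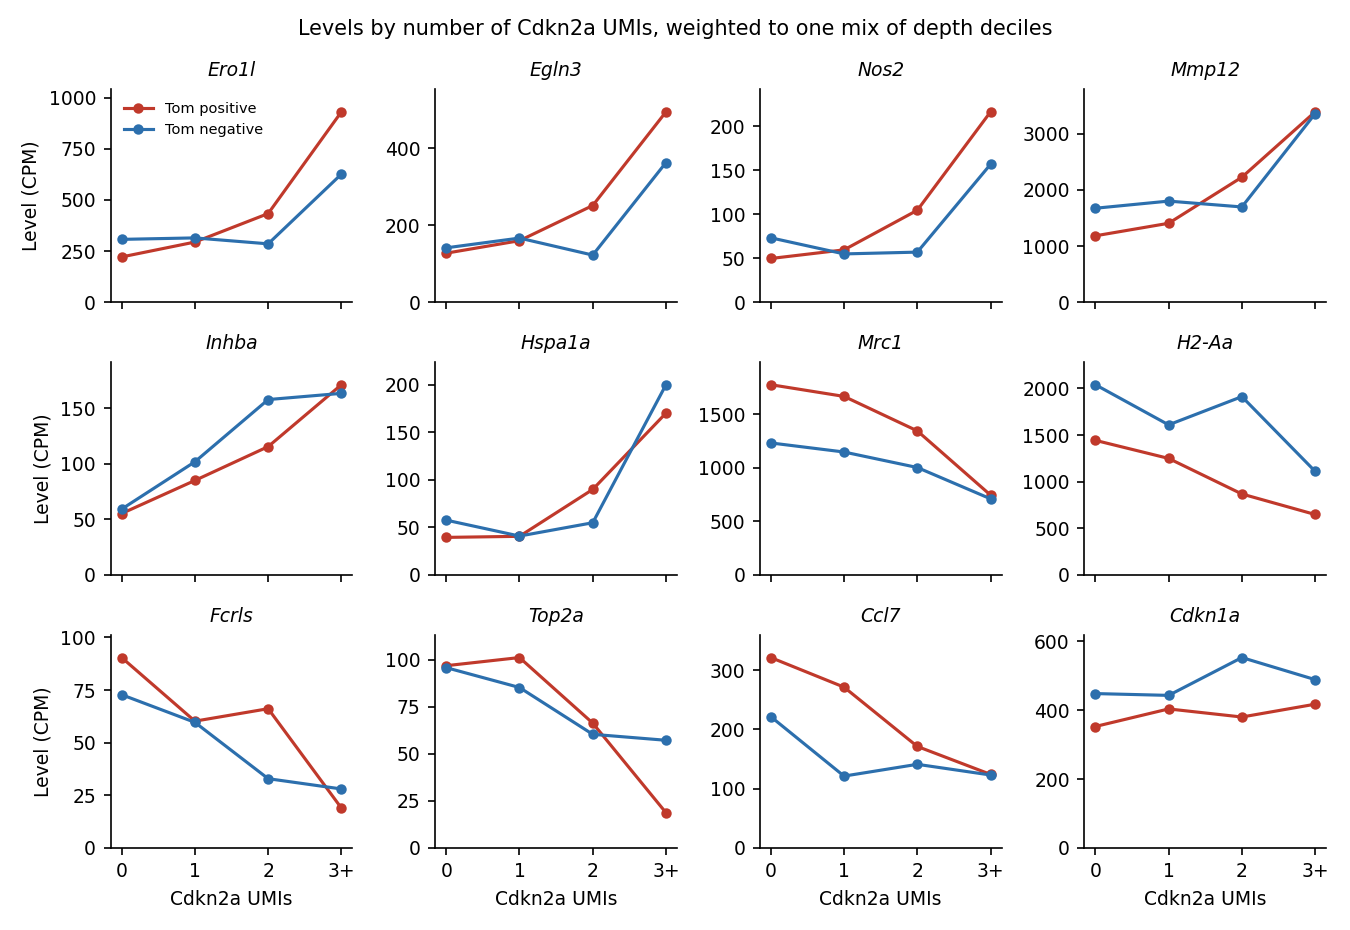
Levels (CPM) of 12 genes in myeloid cells with 0, 1, 2 and 3 or more Cdkn2a UMIs, weighted to the depth mix of detected cells, in the Tom positive (red) and Tom negative (blue) library; each point is 1 sum over cells and has no replicate. Ero1l goes from 221 CPM at 0 UMIs to 931 at 3 or more in Tom positive cells and from 307 to 626 in Tom negative cells, where it is 285 at 2 UMIs.

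Levels by the number of Cdkn2a UMIs differed between the sorts. In Tom positive cells Ero1l stood at 221, 294, 433 and 931 CPM at 0, 1, 2 and 3 or more Cdkn2a UMIs, and Egln3 at 127, 160, 251 and 495 CPM. In Tom negative cells Ero1l stood at 307, 314, 285 and 626 CPM and Egln3 at 141, 167, 122 and 363 CPM. In the Tom negative library the excess of both thus lay in the 112 cells with 3 or more UMIs and was not seen at 2 UMIs. Levels there at 0 and 2 UMIs were 316 and 314 CPM for Bnip3 and 1674 and 1697 CPM for Mmp12. Nos2 went from 73.1 to 56.8, Hspa1a from 57.7 to 54.9, Hspa1b from 82.7 to 52.0 and Selenbp1 from 48.1 to 39.9 CPM. Dach1 and Srgap3 were no higher at 2 UMIs either. Ackr3, Adgrl2, Car4, Clcn3, Hsph1, Impa2, Ndrg1 and Spp1 stood higher at 2 than at 0 UMIs. Inhba stood at 59.2, 102, 158 and 163 CPM there, so its level was already high at 2 UMIs.

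Among lower genes, mitosis genes had the lowest median. Of 8 measured members, of 22 listed, 5 were called lower in both libraries (Mki67, Top2a, Ube2c, Cdk1 and Birc5) and none higher, with medians of −1.25 and −0.69. Mki67, the proliferation antigen, stood at 24.5 CPM in detected and 61.8 CPM in undetected Tom positive cells and at 33.8 and 57.0 CPM in Tom negative cells, which is 2.52-fold (2.13 to 3.00) and 1.69-fold (1.45 to 1.98) lower. Ube2c, which tags cyclins for destruction at anaphase, stood at 29.1 against 91.8 and 51.1 against 106 CPM. Of 9 measured DNA replication genes 3 were called lower (Mcm6, Pola1 and Rrm1), with medians of −0.74 and −0.24. Over all genes 0.763% were called lower in both libraries.

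The difference in mitosis genes rested on few cells and on the match for depth. At 1000 CPM or more of the mitosis list, 13 of 274 detected Tom positive cells (4.74%, 2.55 to 7.98) and 15 of 202 Tom negative cells (7.43%, 4.22 to 11.95) counted as dividing, against 12.3% and 15.04% of depth-matched undetected cells. Without the match the shares of undetected cells were 6.64% (4.95 to 8.68) and 8.71% (7.22 to 10.4), whose intervals overlap those of detected cells, and the medians of the list were −0.59 and −0.13. Cluster 7, led by histone and mitosis genes, had the highest median depth of the 13 clusters with at least 20 cells in each library, at 44414 and 41468 UMIs. Barcodes that counted as dividing and held 2 or more Cdkn2a UMIs were thus present in both libraries. Cluster 7 held Cdkn2a at 18.0 and 13.5 CPM, against 49.9 and 23.8 CPM in all myeloid barcodes. How much of the Cdkn2a in dividing cells was background RNA was not tested. Without cells at 200 CPM or more of the mitosis list its medians were −0.23 and −0.02, and Ube2c and Birc5 lay above 0 in both libraries.

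Type 2 response genes, which macrophages express under interleukin-4 and interleukin-13, had medians of −0.89 and −0.58. Of 10 measured members 4 were called lower in both libraries (Retnla, Ear2, Mgl2 and Clec10a), against 0.763% of all genes. None was called higher. In each library 2 members were above 0, the highest being Ccl24 at 1.04 in Tom positive and Chil3 at 0.66 in Tom negative cells. Retnla, a secreted product of macrophages under these interleukins, stood at 23.1 against 169 CPM and at 42.7 against 173 CPM. These are 7.32-fold (6.29 to 8.58) and 4.05-fold (3.55 to 4.62) lower. In Tom negative cells Retnla stood at 173, 439, 137 and 0.78 CPM at 0, 1, 2 and 3 or more Cdkn2a UMIs. The low level there thus lay mostly in cells with 3 or more. When undetected cells were also matched on cluster (below), the log2 differences of Retnla were −1.15 and 0.56. Few cells carried it: at 5000 UMIs 0.365% of detected and 3.52% of undetected Tom positive cells, and 1.49% and 5.05% of Tom negative cells, held a Retnla UMI. Mgl2, a lectin of antigen-presenting macrophages, stood at 94.0 against 223 and 198 against 303 CPM and was lower in all 10 depth bins of each library.

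Resident-type macrophage markers had 10 of 11 measured members below 0 in both libraries, and medians of −0.84 and −0.31. Only Folr2, the folate receptor of resident macrophages, was called lower, at 25.8 against 73.3 and 18.4 against 35.3 CPM. Over all genes 0.763% were called lower, so a list of this size would hold about none. Mrc1, the mannose receptor CD206, stood at 956 against 1774 and 821 against 1231 CPM and just missed the limit in the Tom negative library, at 1.499-fold lower. Fcrls and Pltp, which are not in the list, were lower in all 10 depth bins of both libraries. Fcrls stood at 34.7 against 90.4 and 31.5 against 72.8 CPM, and Pltp, a phospholipid transfer protein, at 24.2 against 98.2 and 47.6 against 105 CPM.

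MHC class II genes showed the same sign without a call. All 7 measured members were below 0 in both libraries, with medians of −0.92 and −0.41, and all 7 passed the limit in the Tom positive library but none in the Tom negative library; the difference between the libraries was not tested. H2-Aa stood at 724 against 1443 and 1443 against 2039 CPM, and H2-Eb1 at 501 against 1068 and 998 against 1461 CPM. Of 15 measured respiratory chain genes all were below 0 in both libraries, with medians of −0.27 and −0.15. Ndufa4 was called lower at 79.5 against 135 and 93.4 against 148 CPM. Over all genes 0.763% were called lower.

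The secretory genes of senescence did not move as a group. Of 14 measured inflammatory factors none was called higher and Ccl7 and Ccl8, which attract monocytes, were called lower, with medians of 0.20 and 0.06. Ccl8 stood at 20.6 against 215 and 6.30 against 29.2 CPM, and Ccl7 at 142 against 321 and 130 against 221 CPM. Of 22 growth factors and proteases Mmp12 and Spp1 were called higher and none lower, with medians of 0.03 and −0.07. None of 11 measured genes of p53 and its targets was called (medians 0.02 and −0.02); over all genes 0.559% were called higher and 0.763% lower, so lists of this size would hold about none at that rate. Gadd45a, a stress gene of that list, stood at 60.6 against 23.8 CPM (2.54-fold) and 43.2 against 29.1 CPM (1.48-fold), just under the limit in Tom negative cells. Nor was any of 10 genes of the BCL2 family or 8 Polycomb subunits called.

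Of the other cyclin-dependent kinase inhibitors, Cdkn1a and Cdkn1b reached the level set for calling and neither was called. Cdkn1a (p21) stood at 408 against 353 CPM in Tom positive and 511 against 448 CPM in Tom negative cells, ratios of 1.16 (1.10 to 1.21) and 1.14 (1.09 to 1.19). Cdkn1b (p27) stood at 55.4 against 40.3 and 51.2 against 40.3 CPM. Cdkn2b (p15Ink4b), the neighbour of Cdkn2a on chromosome 4, was under the level set for calling, at 2.59 against 1.65 and 2.27 against 1.30 CPM. Cdkn2c (p18Ink4c), also under that level, stood at 7.77 against 18.1 and 9.97 against 18.3 CPM, which is 2.33-fold (1.73 to 3.18) and 1.84-fold (1.39 to 2.48) lower. Trp53 stood at 38.6 against 49.5 and 52.5 against 53.4 CPM, and Rb1 at 98.8 against 82.0 and 82.9 against 83.8 CPM.

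Ctsk, the collagen-degrading cathepsin of osteoclasts, was called lower, at 124 against 218 and 71.9 against 286 CPM, but rested on few cells. It was lower in 5 and 6 of 10 depth bins, a Ctsk UMI was found in 7.66% of detected and 8.40% of undetected Tom positive cells and in 13.9% and 11.8% of Tom negative cells at 5000 UMIs, and its difference was 0.02 in Tom positive cells without the match and 1.71 in Tom negative cells at a mitochondrial limit of 5%.

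To see where detected cells lay, all myeloid cells were clustered into 17 clusters without Cdkn2a, tdTomato, Xist or the replication and mitosis genes. Among the 13 clusters with at least 20 cells in each library, the share of detected cells was highest in cluster 8, led by Inhba, Nos2, Hspa1b and Ero1l, at 47.1% (39.8 to 54.5) of 189 Tom positive and 21.9% (15.5 to 29.5) of 146 Tom negative cells, with Cdkn2a at 148 and 65.6 CPM. That cluster was not deep, with medians of 16439 and 18644.5 UMIs. Of all detected cells 32.5% in the Tom positive sort and 15.8% in the Tom negative sort lay there, against 5.98% and 5.48% of depth-matched undetected cells. Clusters 16 (led by Hspa1b, Rsad2 and Hspa1a) and 4 (Chil3, Car4 and Wfdc21) followed, at 36.8% and 17.5% and at 36.4% and 19.6%. The intervals of these shares overlap those of cluster 8, but shares follow depth, and cluster 4 was deeper (medians 27787.5 and 24605.5 UMIs). Cdkn2a stood at 97.5 (82.4 to 114) and 46.0 (38.2 to 54.9) CPM in cluster 16. In cluster 4 it stood at 60.9 (51.5 to 71.5) and 30.7 (26.2 to 35.7) CPM. These intervals lie below those of cluster 8, 136 to 162 and 56.5 to 75.6 CPM. The smaller cluster 10, led by endothelial genes, held 7 of 17 and 2 of 8.

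Low shares were found in clusters 14 and 3, and in cluster 9 of the Tom negative library. Cluster 14, led by Ccl8, Lyve1 and Cd163, held 0 of 50 (upper limit 7.11%) and 2 of 43 detected cells (4.65%, 0.568 to 15.8), at median depths of 11879 and 12308 UMIs, lower than in the other clusters with at least 20 cells in each library. Cluster 3, led by Ccl8 and Selenop, held 3.88% and 3.68%, at median depths of 14977 and 13384 UMIs. Cluster 9, led by Retnla and Ear2, held 10.5% (3.96 to 21.5) and 1.42% (0.172 to 5.03). Cluster 1, led by Ccl8, Ms4a7 and Ccl7, held 10.1% and 6.36%.

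**Figure D4:**
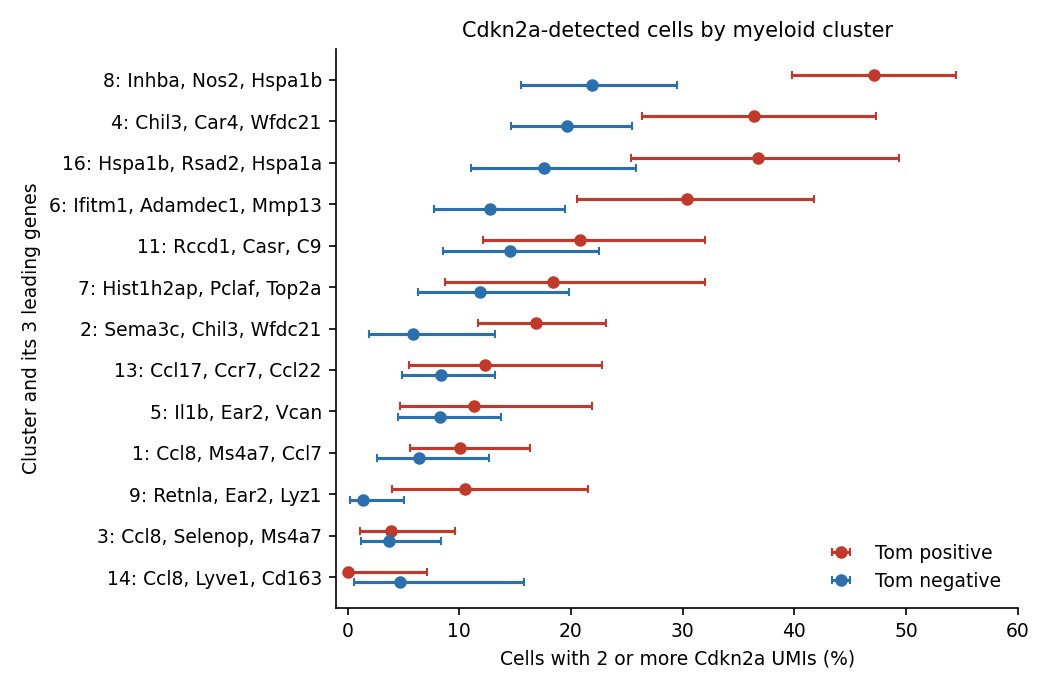
Share of cells with 2 or more Cdkn2a UMIs (%) in the 13 myeloid clusters with at least 20 cells in each library, labelled by their 3 leading genes, in the Tom positive (red) and Tom negative (blue) library; bars are exact binomial 95% intervals. Cluster 8 is highest, at 47.1% and 21.9%, and cluster 14 holds 0 of 50 and 2 of 43.

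Over the 28 points given by clusters with at least 20 cells in a library, the genes whose level was most like that of Cdkn2a were Npepps, Bnip3l, Clcn3, Ero1l and Egln3, with Pearson correlations of 0.819, 0.818, 0.817, 0.814 and 0.806. The points of a library share its depth and preparation, so the correlations are a description. Npepps encodes a cytosolic aminopeptidase and Bnip3l a receptor for the removal of mitochondria. Bnip3l stood at 326 against 184 and 273 against 208 CPM in detected and undetected cells, and Clcn3, a chloride and proton exchanger, was called higher at 119 against 75.3 and 122 against 80.0 CPM.

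When undetected cells were matched on cluster as well as depth, most differences shrank. No gene was higher and 4 (0.0678%) were lower in both libraries, and the correlation across genes between the libraries was 0.13. Within single libraries 30 and 4 genes were higher and 33 and 20 lower, which is 0.508% and 0.0678% higher and 0.559% and 0.339% lower of the genes. The clusters were built from the same genes that are compared, so this match removes differences between clusters by construction. Over the 33 higher genes the median difference went from 1.08 and 0.69 to 0.26 and 0.22, and 27 of them kept their direction in both libraries. Over the 45 lower genes it went from −1.16 and −0.75 to −0.36 and −0.29, and 38 kept their direction.

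The glycolysis and hypoxia list had medians of 0.27 and 0.10 after this match, against −0.04 and −0.01 over all genes, and the mitosis list −0.23 and −0.14. Egln3 stood at 0.41 and 0.26 and Ndrg1 at 0.51 and 0.20. Inhba stood at −0.11 in Tom positive and 0.85 in Tom negative cells, and Nos2 at 0.69 and −0.05. The 4 lower genes were Ctsk, Gclc (the catalytic subunit that starts glutathione synthesis), Hp and Ckb, the last 2 chosen after their values were seen. Gclc stood at −0.65 in both libraries after the match and at −0.31 and −0.38 before it. Inside cluster 8 alone, 89 and 32 detected cells against 72 and 80 undetected cells gave medians of 0.36 and 0.06 for the glycolysis and hypoxia list.

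**Figure D5:**
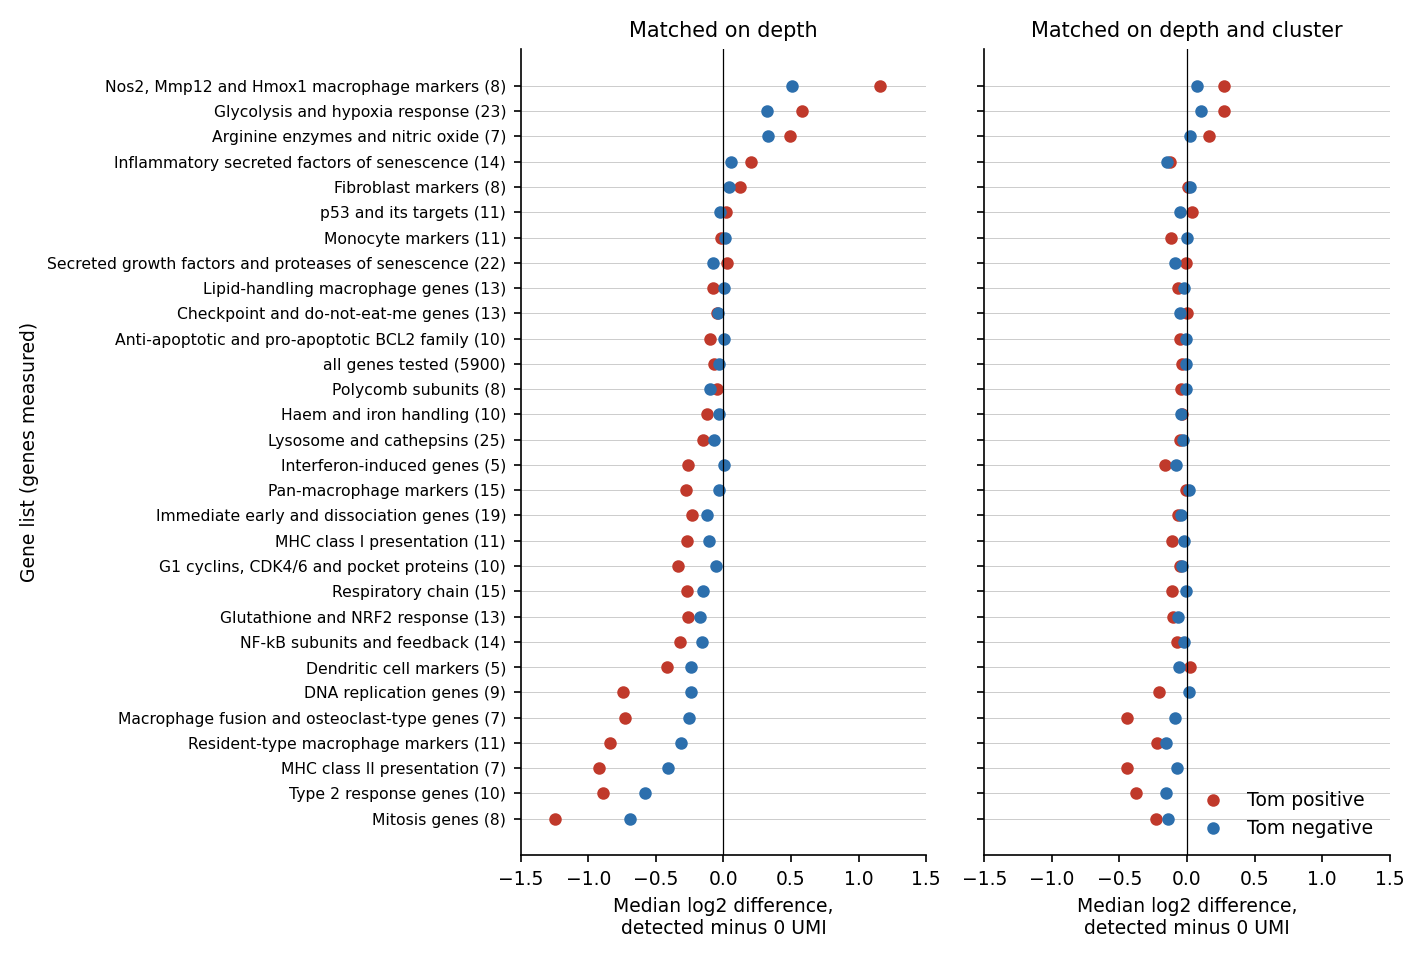
Median log2 difference between detected and undetected cells for each gene list with at least 5 measured genes (number in brackets) in the Tom positive (red) and Tom negative (blue) library, matched on depth (left) and on depth and cluster (right). The Nos2, Mmp12 and Hmox1 list stands at 1.16 and 0.51 on the left and at 0.27 and 0.07 on the right, and the mitosis list at −1.25 and −0.69 and at −0.23 and −0.14.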

How the data were processed

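Single-cell RNA was captured with the 10x Genomics 3′ kit (version 3.1) from 1 reporter positive and 1 reporter negative sort. The deposited matrices hold whole UMI counts per gene and barcode, made by the authors with Cell Ranger 7.0.1, per the file headers, on mm10 with GENCODE M21, per the submitters' processing notes; the totals were 128275546 and 164646314 UMIs over 7568 and 13604 barcodes. The 2 libraries are different sorts and not replicates.

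Counts of detected cells, and of undetected cells weighted over 10 depth strata, were summed and scaled to CPM, and differences taken on log2(CPM + 1). Genes at 20 CPM or more in both libraries were compared, without Cdkn2a, and called at 1.5-fold in both. Intervals are 95% (exact Poisson and gamma for counts, Clopper-Pearson for shares) and cover counting error only. Clusters were made with scanpy 1.11.5 and igraph 0.11.9 (Leiden, resolution 1). Scrublet called 63 and 97 doublets; they were kept and included 2 detected cells. Python 3.11.15, numpy 2.4.6 and scipy 1.17.1 were used. In simulated data with 5901 genes, 99.5% of 200 genes changed 2-fold and 0 of 5501 unchanged genes were called. Of 200 genes linked to depth, 0 were called with the match on depth and 0 without it. How often unchanged genes are called in the real cells was not tested.

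Named genes were the cell-cycle inhibitors and rule genes, the 15 highest and 15 lowest called genes at 50 CPM or more by the smaller of the libraries' differences, the 8 each way after the match on cluster, up to 4 per list, and the 5 most like Cdkn2a over clusters. Mitochondrial, ribosomal protein, haemoglobin, Gm and Rik genes, and names held by several features, were not ranked. The members and the 38 gene lists were chosen with earlier results of these data known. Alternatives changed the Cdkn2a limit, depth match, thinning, scaling, pseudocount, level, fold, mitochondrial limit, other cell types, shared barcodes, doublets, dividing cells, reporter and clusters. Leaving out clusters led by other cell types, and barcodes far deeper in the other library, was chosen after seeing the data.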

Additional observations from a re-analysis of the deposited data

Results flagged for a closer look

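Cxcl10, an interferon-induced chemokine, was the 1 gene past 1.5-fold in opposite directions in the 2 sorts. It stood at 26.7 CPM in detected and 14.0 CPM in undetected Tom positive cells, a log2 difference of 0.89, and at 10.8 and 24.4 CPM in Tom negative cells, a difference of −1.10. The difference between the sorts was not tested.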

How the results depend on the processing

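No paired analysis was possible because each sort has 1 library. Against 33 genes higher and 45 lower, there were 3 and 13 at a limit of 1 Cdkn2a UMI, 77 and 97 at 3 UMIs, 51 and 68 without the deepest of 10 depth bins, 91 and 187 under stricter limits on other cell types, 50 and 76 at a level of 10 CPM, 20 and 17 at 50 CPM, and 2 and 7 at 2-fold. Lower genes numbered 97 after thinning to 5000 UMIs and 77 at a mitochondrial limit of 5%. After the match on cluster, lower genes numbered 8 at resolution 0.5, 0 at resolution 2 and 2 at 50 CPM, and at 10 CPM there were 6 higher and 8 lower. The share of detected cells was 5.18% and 2.26% after thinning, and 17.9% in Tom positive cells without shared barcodes. Of 274 differences of named genes, 124 were past 1.5-fold in their library. Those of the 124 that changed sign or went to 0 follow, on the log2 scale, and the cause was not tested. Without the depth match Ctsk stood at 0.017 (Tom positive), and at the 5% limit at 1.71 (Tom negative). Without shared barcodes Dach1 stood at −0.16 and Sparc at −0.057, and without the deepest of 10 depth bins Sparc at −0.053 (all Tom positive). Without dividing cells, removed by the genes themselves, Birc5 stood at 0.30 and 0.70, Ube2c at 0.96 and 0.045, Ezh2 at 0.012 (Tom positive) and Top2a at 0.74 (Tom negative). Under the stricter limits, with 4 detected Tom negative cells, values there were −0.23 for Ackr3, −0.46 for Adgrl2, 0.038 for Clec4a3, 0.51 for Ctsk, 0 for Dach1 and Retnla, 2.63 for Ear2, 0.25 for Fchsd2, −3.06 for Hspa1a, −4.07 for Inhba, 0.14 for Mcm6, 0.88 for Ndufa4 and 1.28 for Pltp, and in Tom positive cells 0.12 for Igf1 and −0.20 for Inhba. After the match on cluster, Tom positive values were −0.091 for Adgrl2, 0.10 for Birc5, 0.072 for Ccl17, −0.50 for Cxcl3, −0.54 for Dach1, −0.11 for Inhba, −0.25 for Mmp8 and 0.11 for Pola1, and Tom negative values −0.046 for Nos2, 0.56 for Retnla and 0.030 for Top2a. None of the 124 changed sign under the other settings. Of the 150 smaller differences, 32 changed sign after the match on cluster, 49 under the stricter limits, 8 without the depth match, 11 after thinning, 10 at 1 Cdkn2a UMI, and at most 7 under any other setting.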

Other observations

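Calls and medians of other lists are given here as values; with 0.559% of all genes called higher and 0.763% lower, lists of this size would hold about none at that rate. None of 11 measured MHC class I genes was called, with medians of −0.27 and −0.11 in Tom positive and Tom negative cells. None of 13 glutathione and NRF2 response genes was called (medians −0.26 and −0.17), nor any of 14 NF-kB subunits and feedback genes (−0.32 and −0.16). Of 25 lysosome and cathepsin genes 1 was called lower, Ctsk, and none higher (−0.15 and −0.07). Of 13 lipid-handling genes Spp1 was called higher. None of 11 monocyte markers was called (−0.02 and 0.01), nor any of 5 measured dendritic cell markers (−0.41 and −0.24) or 13 checkpoint and do-not-eat-me genes (−0.05 and −0.04). The median over all genes was −0.07 and −0.04.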
